A study of Mus musculus with 6 samples.

Results

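The Sprouty, Spred and Etv genes that act as feedback on the ERK pathway, together with Phlda1, were followed in myoblasts grown on fibronectin or on collagen I. They were chosen by gene symbol, keeping probe sets that the array annotation ties to exactly 1 gene. Of 9 named genes, Spry1, Spry2, Spry4, Spred1, Spred2, Etv4, Etv5 and Phlda1 were found, 8 genes with 26 probe sets among 18193 genes and 45101 probe sets in all. The 3 probe sets of Etv1 are annotated to a second gene as well, so Etv1 has no value here.

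The cells were myoblasts, the dividing precursors of muscle fibres. They came from male C57BL/6JRj mice aged 9 to 15 weeks, whose hindlimb muscles were the source. They were grown for 72 hours on collagen I (3 samples) or on fibronectin (3 samples). The medium of both groups was Ham's F-10, with 20% fetal bovine serum, 1% P/S and basic fibroblast growth factor at 2.5 ng/ml, so a ligand of the FGF receptors was present in every dish. The labels do not give the number of animals or whether the samples were separate cultures, so the p-values reflect sample to sample spread that may be purely technical.

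Fibroblast growth factor and other ligands of receptor tyrosine kinases switch on Ras, the Raf and Mek kinases and then ERK. ERK output in turn raises transcription of its own inhibitors, the Sprouty and Spred proteins, and of the Etv1, Etv4 and Etv5 factors of the ETS class. Transcripts of these genes are therefore often read as a record of recent ERK activity. In muscle, Spry1 is also known as a gene of quiescent satellite cells, the stem cells from which myoblasts derive.

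Expression was read as log2 signals of an Affymetrix mouse array. The median signal was 2.35 to 2.39 in collagen samples and at most 2.34 in fibronectin samples, and pairs of samples correlated at 0.994 to 0.998 across probe sets other than controls. The difference between control probe sets at the 3′ and 5′ ends of a transcript, a sign of RNA quality, was 0.33 to 0.46 on collagen and 0.33 to 0.39 on fibronectin for Gapdh, in log2 units. For Actb it was 0.63 to 0.72 and 0.57 to 0.65. The myoblast markers Myod1, Myf5, Pax7, Des, Cdh15, Itga7, Ncam1 and Chrna1, 8 of 8, were bright enough to test. All 6 endothelial markers and the 3 measured adipocyte markers lay below the brightness filter. So did the macrophage markers Ptprc, Adgre1 and Tyrobp and the fibroblast markers Pdgfra, Dcn, Lum, Col1a1 and Col1a2. Bright enough to test were the fibroblast markers Col3a1 and Thy1, the macrophage markers Cd68, Csf1r and Cd14, and the Schwann marker Sox10. Rgs5, Cspg4 and Notch3 of smooth muscle and pericytes were also tested. Mean log2 signals on collagen were 9.33 for Col3a1 and 9.07 for Rgs5.

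On fibronectin the Spry1 signal fell 2.03-fold, Spry4 and Spred2 fell by much less, and Spry2, Spred1, Etv4, Etv5 and Phlda1 did not pass the test. All 8 genes were bright enough to test, with the brightest probe set standing for a gene, and 3 fell while 0 rose at an adjusted p of 0.05 in limma. Among all 10941 genes tested 40.1% passed, made up of 20.2% that were lower and 19.9% that were higher on fibronectin. The 3 of 8 members, or 37.5%, lay near that share. With each sample centred on its median, 1646 genes were lower and 2973 higher, 42.2% called, and 1 of 8 members, Spry1, passed. The log2 change was below 0 in 7 of 8 members, beside 49.3% of all tested genes, and in 6 of 8 beside 38.6% with samples centred. Its median was -0.12 over the members and 0.00 over all tested genes. In bulk RNA a smaller number of cells of a type and less RNA in each cell cannot be told apart.

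**Figure D1:**
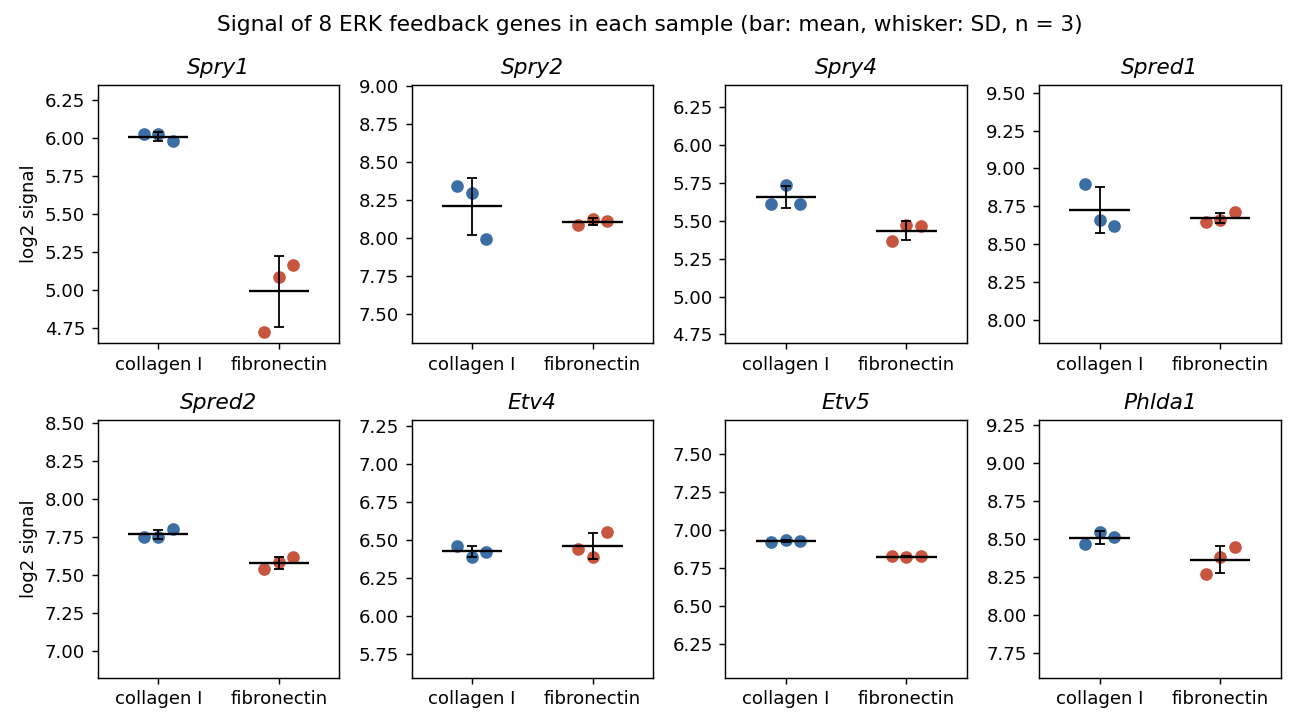
Log2 signal (vertical axis, each panel spanning the same height in log2 units) of the brightest probe set of 8 genes in the 3 collagen I samples and 3 fibronectin samples. Points are samples, horizontal bars are means and whiskers are SD; Spry1 drops from about 6.0 to about 5.0, and the other genes move by less than 0.25.

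Spry1 encodes a membrane-associated inhibitor that restrains signalling from receptor kinases to Ras. The log2 signal of its probe set 1415874_at was 6.02, 6.03 and 5.98 in the collagen samples and 4.72, 5.08 and 5.16 in the fibronectin samples. All fibronectin samples lay well below all collagen samples, and fibronectin replicate 1 was the lowest. The mean went from 6.01 ± 0.03 to 4.99 ± 0.23 (SD, n = 3 each), a fall of 1.02 on the log2 scale or 2.03-fold (SE 0.11, 95% interval of the log2 change -1.26 to -0.78, limma adjusted p = 0.000288). Of all tested genes 110, or 1.01%, fell at least 2-fold and passed. Over the alternative settings and with each sample left out in turn the log2 change of Spry1 lay between -1.11 and -0.89 and passed in each.

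Spry2 (probe set 1436584_at), a close paralog and likewise an inhibitor of growth factor signalling, had log2 signals of 8.34, 8.29 and 7.99 on collagen and 8.09, 8.13 and 8.11 on fibronectin. The groups overlapped, since collagen replicate 3 lay below all fibronectin samples. The log2 change was -0.10 with a 95% interval of -0.30 to 0.10 (limma adjusted p = 0.397). Without collagen replicate 3 it was -0.21 and passed, at a limma adjusted p of 0.018. A dimmer probe set of Spry2 had a log2 change of 0.06 (probe set fit, limma adjusted p = 0.408).

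Spry4 (1440867_at), the remaining Sprouty gene of the set, had log2 signals of 5.61, 5.74 and 5.61 on collagen and 5.37, 5.47 and 5.47 on fibronectin. The groups did not overlap, but the gap was small. The fall was 0.22 on the log2 scale with an SE of 0.06 (1.16-fold, limma adjusted p = 0.0163). The call was lost without collagen replicate 2 (log2 change -0.18, adjusted p = 0.0542), without fibronectin replicate 1 (-0.18, adjusted p = 0.057) and with samples centred on their medians (-0.16, adjusted p = 0.0729). It was also lost, narrowly, without the brightness filter (adjusted p = 0.0513). All 4 probe sets of Spry4 were lower in every fibronectin sample than in any collagen sample, as were 22.5% of all tested probe sets. The 3 bright enough to test fell by 0.22, 0.25 and 0.29 on the log2 scale, and the fourth lay below the brightness filter. The calls of the 2 dimmer tested probe sets were also fragile. That of 1422021_at was lost under 8 alternatives and kept under 5, and that of 1445669_at was lost under 6 and kept under 7. The stricter threshold of 0.01 was among those that lost each call.

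The change of Spry1 exceeded that of its paralogs within the same samples. The log2 signal of Spry1 minus that of Spry2 was -2.32, -2.27 and -2.01 on collagen and -3.36, -3.05 and -2.95 on fibronectin, a difference between the changes of -0.92. Against Spry4 the difference between the changes was -0.80, with values of 0.41, 0.29 and 0.37 on collagen and -0.64, -0.39 and -0.30 on fibronectin. In both pairs the groups did not overlap. Two-sided exact permutation tests gave p = 0.1 for each, the smallest that 3 against 3 samples allow, and 0.167 adjusted over 5 paralog pairs. Spry4 minus Spry2 differed between coatings by -0.12, with overlapping groups (exact permutation p = 0.4, adjusted p = 0.4).

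The bases before the start of Spry1, which fell most, are shown with those of Spred2, which fell slightly, and of Spry2, which did not pass, so that paralogs with different changes can be compared. They are the 250 bases before the annotated start in RefSeq, read 5′ to 3′ on the strand of the gene in build GRCm38.p6, at chr3:37639697-37639946 (plus strand), chr11:19924192-19924441 (plus strand) and chr14:105896820-105897069 (minus strand). Capitals mark GGAA on either strand, the core that ETS factors bind.
Spry1: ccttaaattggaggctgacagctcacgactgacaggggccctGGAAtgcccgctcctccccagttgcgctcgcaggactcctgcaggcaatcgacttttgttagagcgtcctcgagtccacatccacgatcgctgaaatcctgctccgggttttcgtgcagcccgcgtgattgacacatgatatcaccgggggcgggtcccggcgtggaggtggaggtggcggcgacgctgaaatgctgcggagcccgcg
Spred2: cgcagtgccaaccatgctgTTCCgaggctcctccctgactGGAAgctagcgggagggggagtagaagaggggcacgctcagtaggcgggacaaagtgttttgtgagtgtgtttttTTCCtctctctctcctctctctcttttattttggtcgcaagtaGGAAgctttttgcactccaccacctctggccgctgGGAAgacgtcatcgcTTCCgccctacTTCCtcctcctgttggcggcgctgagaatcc
Spry2: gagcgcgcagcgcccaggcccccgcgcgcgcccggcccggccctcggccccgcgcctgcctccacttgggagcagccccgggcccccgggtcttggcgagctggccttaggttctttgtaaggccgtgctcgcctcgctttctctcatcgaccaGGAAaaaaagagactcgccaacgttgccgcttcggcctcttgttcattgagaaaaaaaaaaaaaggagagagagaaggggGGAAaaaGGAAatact

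The window of Spry1 held 1 GGAA core, that of Spred2 held 7 and that of Spry2 held 3. The core is common, being present in 93.4% of 32851 promoter windows of this length, with a median of 3 per window. A longer ETS site, CCGGAA, was in 12% of all windows, the AP-1 site TGAGTCA in 4.46% and the E-box CAGCTG in 13.0%, each searched on both strands, and the CCGGAA matches are part of the GGAA matches. None of these longer motifs was in the windows of Spry1, Spred2 or Spry2. A match describes letters only, and the array does not measure binding.

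Spred proteins are relatives of Sprouty that bring the Ras inhibitor neurofibromin to the membrane. Spred2 (1434403_at) had log2 signals of 7.75, 7.75 and 7.80 on collagen and 7.54, 7.58 and 7.61 on fibronectin. The groups did not overlap and each was tight. The fall was 0.19 on the log2 scale with an SE of 0.04 (1.14-fold, limma adjusted p = 0.012), and with samples centred it did not pass (log2 change -0.13, adjusted p = 0.0683). Its probe sets did not all show the same size: 1441415_at fell by 0.44 (probe set fit, limma adjusted p = 0.0112), and 3 dimmer ones read -0.14, -0.27 and -0.05 that failed the test.

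Spred1 (1423160_at) had log2 signals of 8.90, 8.66 and 8.62 on collagen and 8.65, 8.66 and 8.71 on fibronectin. The groups overlapped, and collagen replicate 1 stood above the rest. The log2 change was -0.05 (95% interval -0.23 to 0.12, limma adjusted p = 0.606), and it was 0.00 with samples centred and 0.03 without collagen replicate 1. The difference between the changes of Spred2 and Spred1 was -0.14, with overlapping groups (exact permutation p = 0.4, adjusted p = 0.4).

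Spred1 has 8 probe sets, of which 6 were bright enough to test, and they gave different readings. Of the 6, 1 fell: 1423162_s_at read 6.46, 6.29 and 6.21 on collagen and 5.80, 5.89 and 6.05 on fibronectin, a fall of 0.40 on the log2 scale (limma adjusted p = 0.0107). None of the other 5 passed, with log2 changes between -0.13 and -0.03. The probe sets 1423160_at and 1423162_s_at were designed from the same EST, yet the second minus the first was -2.44, -2.38 and -2.41 on collagen and -2.84, -2.78 and -2.66 on fibronectin, groups that did not overlap. This pair was chosen after its values were seen and was not tested. An ending of _s_at marks probe sets whose probes can match more than a single transcript. 1423161_s_at, from the same EST and with the same ending, had a log2 change of -0.10 and did not pass (probe set fit, limma adjusted p = 0.359).

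**Figure D2:**
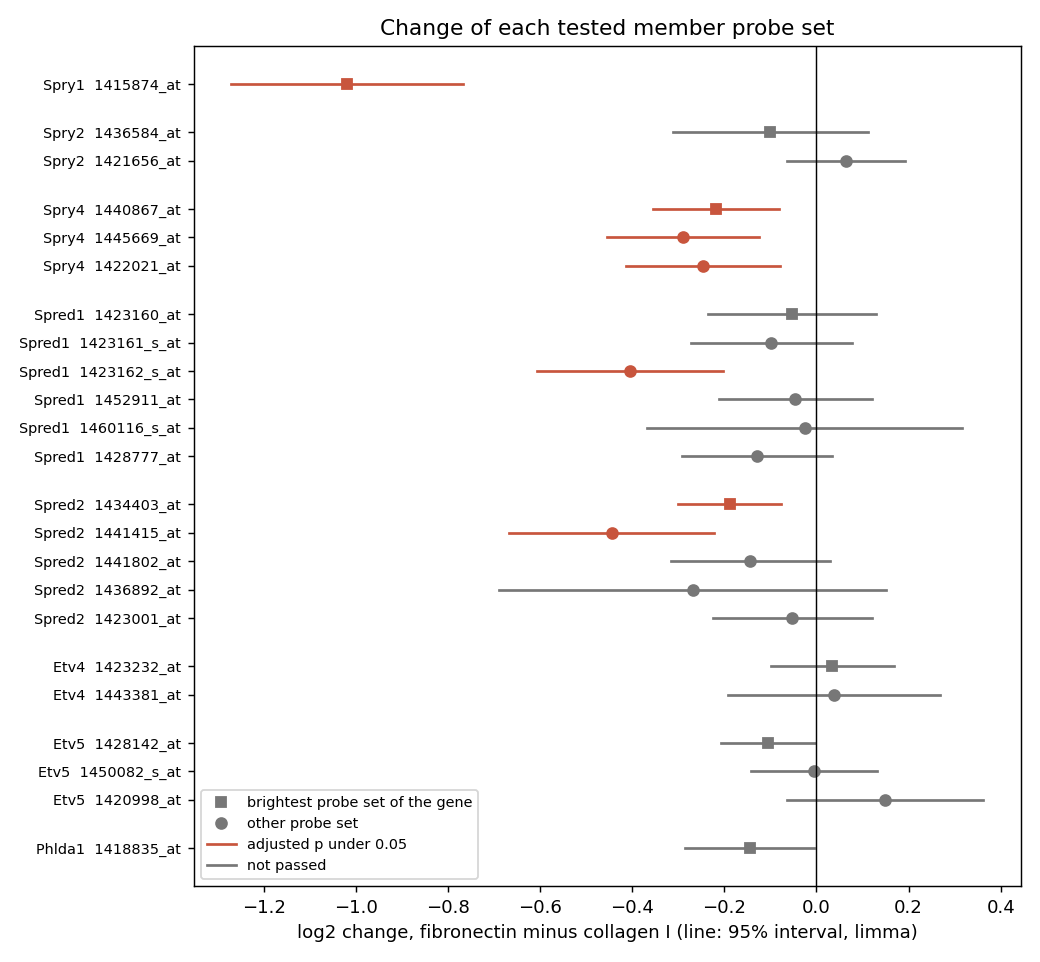
Log2 change (horizontal axis, fibronectin minus collagen I) of the 23 member probe sets bright enough to test, grouped by gene, with 95% intervals from limma as lines, squares for the brightest probe set of a gene and circles for the others. The 7 in red passed an adjusted p of 0.05, all on the lower side, and include all 3 tested probe sets of Spry4 but 1 of 6 of Spred1 and 2 of 5 of Spred2.

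Over all members 7 of 23 tested probe sets fell and 0 rose, beside 32.0% of 22496 tested probe sets that passed in either direction, with 15.8% lower and 16.2% higher. The log2 change was below 0 in 19 of 23, beside 48.4% of all tested probe sets, and in 14 of 23 beside 37.7% with samples centred. In 10 of 23 every fibronectin sample lay below every collagen sample, beside 22.5% of all tested probe sets, and in 0 it lay above, beside 25.3%. The overlap of samples was counted on values as deposited, where the fibronectin medians were lower, and not with samples centred. Probe sets of a gene share their transcript, so these counts are not counts of independent genes. The count of 7 became 3 without collagen replicate 2 or without fibronectin replicate 1, and 4 without fibronectin replicate 3. In those fits the count over all genes, 4384 of 10941, also dropped, to 3466, 3431 and 3493. The share of all probe sets that passed in them is not given here.

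Etv4 and Etv5 are transcription factors of the Pea3 group, which act downstream of FGF receptors. Etv4 (1423232_at) had log2 signals of 6.46, 6.39 and 6.43 on collagen and 6.44, 6.39 and 6.55 on fibronectin. The groups overlapped, with a log2 change of 0.03 (95% interval -0.09 to 0.16, limma adjusted p = 0.639). Etv5 (1428142_at) had 6.92, 6.94 and 6.93 on collagen and 6.83, 6.82 and 6.83 on fibronectin. Its groups were tight and did not overlap, but the change was small, -0.11 on the log2 scale, and did not pass (95% interval -0.20 to -0.01, limma adjusted p = 0.068).

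Etv5 passed with a filter at the 75th percentile of brightness (limma adjusted p = 0.0423) and with array weights (adjusted p = 0.0446), and the mean of its probe sets gave a log2 change of 0.01. Its other probe sets read 0.00 and 0.15 and did not pass. The difference between the changes of Etv5 and Etv4 was -0.14, with groups that did not overlap (exact permutation p = 0.1, adjusted p = 0.167), and it was -0.02 when all probe sets of each gene were averaged.

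Phlda1 encodes a pleckstrin homology domain protein that is often counted among transcripts that follow ERK activity. Its probe set 1418835_at had log2 signals of 8.47, 8.55 and 8.51 on collagen and 8.27, 8.38 and 8.45 on fibronectin. The groups did not overlap, although fibronectin replicate 3 lay just below collagen replicate 1. The log2 change was -0.14 (95% interval -0.28 to -0.01) and did not pass (limma adjusted p = 0.0777). It passed with the 75th percentile filter (adjusted p = 0.0372), with an intensity trend and robust variance (0.0259) and with array weights (0.0477). Counting Etv5 and Phlda1, 5 of 8 members had groups that did not overlap, all of them lower on fibronectin. Beside them, 25.9% of all tested genes were lower without overlap and 27.4% were higher. This count used values as deposited, where the fibronectin medians were lower, and was not repeated with samples centred.

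Other feedback regulators and targets of ERK moved both ways. Of 22 listed genes 18 were tested, 6 rose and 6 fell, which is 66.7% called beside 40.1% of all genes, with a median log2 change of -0.08. Without the brightness filter the calls were 7 among 21 tested, beside 3317 of all 18193 genes. Spred3, the third Spred gene, went from 5.42, 5.23 and 5.12 on collagen to 4.50, 4.69 and 4.68 on fibronectin, a fall of 0.63 on the log2 scale (1.55-fold, limma adjusted p = 0.000987). Dusp4, a nuclear phosphatase that inactivates ERK, fell by 0.42 (adjusted p = 0.00109). Plaur, the urokinase receptor, fell by 0.52 (adjusted p = 0.000165), and the transcription factor Myc rose by 0.32 (adjusted p = 0.00122).

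Dusp6, the cytoplasmic ERK phosphatase and a standard readout of FGF signalling, had log2 signals of 8.97, 9.07 and 9.06 on collagen and 8.80, 8.81 and 8.96 on fibronectin. It fell by 0.18 (1.13-fold, limma adjusted p = 0.0462). That call was lost without collagen replicate 2, collagen replicate 3, fibronectin replicate 1 or fibronectin replicate 2, at adjusted p of 0.129, 0.112, 0.137 and 0.137. It was also lost with samples centred (-0.12, adjusted p = 0.174) and without the brightness filter (0.115). Among further genes of the list, chosen after their values were seen, Il17rd, a membrane inhibitor of FGF signalling, fell by 0.42 (by 0.24 with its probe sets averaged), while the ephrin receptor Epha2 and the ligand Hbegf rose by 0.36 and 0.39, with limma adjusted p of 0.00914, 0.00322 and 0.011. Spry3 lay below the brightness filter.

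Of the receptors and ligands that feed this pathway, 3 of 11 tested genes rose and 3 fell, 54.5% called beside 40.1% of all genes. The 3 that rose were receptors, and those that fell were the receptor Fgfr1 and the ligands Fgf1 and Hgf. Fgfr1, the main FGF receptor of myoblasts, had log2 signals of 6.89, 6.97 and 6.95 on collagen and 6.34, 6.60 and 6.52 on fibronectin, a fall of 0.45 (limma adjusted p = 0.00183). As for Spry1, fibronectin replicate 1 was the lowest. Another FGF receptor, Fgfr4, named after its values were seen, went the other way, from 3.89, 3.49 and 3.66 on collagen to 3.98, 4.24 and 4.17 on fibronectin, a rise of 0.45 (adjusted p = 0.013). Egfr, the EGF receptor, rose by 1.67 on the log2 scale (limma adjusted p = 1.26e-05), and by 0.55 when its 7 probe sets were averaged. Hgf, the ligand of the receptor Met, fell by 0.44 (adjusted p = 0.00199). The transcript of Fgf2, the ligand also added to the medium, lay below the filter at 0.65 ± 0.14 on collagen and 0.58 ± 0.12 on fibronectin (SD, n = 3).

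Of the cascade from Ras adaptors to ERK substrates 20 of 28 listed genes had a value, and 3 rose and 5 fell, or 40.0%, close to the 40.1% of all genes. Those 8 calls became 4 without fibronectin replicate 2, 5 without fibronectin replicate 1 or collagen replicate 2, 4 with probe sets averaged and 5 without the brightness filter. The count over all genes dropped too, from 4384 of 10941 to 3578, 3431 and 3466 with those samples left out. It was 3883 of 10229 with probe sets averaged and 3317 of 18193 without the filter. Rras2, a Ras-related GTPase, rose by 0.50 on the log2 scale (limma adjusted p = 0.00052) and Rps6ka3, a kinase activated by ERK, fell by 0.28 (adjusted p = 0.00516). Ksr1, a scaffold for Raf and Mek, rose by 0.23 (adjusted p = 0.00755), but its log2 change was 0.02 when all probe sets were averaged (adjusted p = 0.887). The other 8 listed genes were not analysed here.

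Partners of Sprouty and Spred proteins were listed together with GTPase-activating proteins, which switch Ras off. Of these 15 genes 7 fell and 2 rose, 60.0% called beside 40.1% of all genes. Their median log2 change was -0.08. The GTPase-activating proteins Rasa4 and Rasa1 fell by 0.71 and 0.50 (limma adjusted p = 0.000154 and 0.00052). Rasa1 read 10.57, 10.49 and 10.59 on collagen and 9.96, 10.04 and 10.15 on fibronectin, with no overlap. Cav1, a membrane scaffold that binds Sprouty proteins, rose by 0.87 (adjusted p = 5.09e-05). Nf1, the neurofibromin that Spred proteins recruit, had a log2 change of -0.06 (95% interval -0.20 to 0.08), and Cbl, a ubiquitin ligase that binds Spry2, had -0.07 (-0.20 to 0.07). Neither passed, at limma adjusted p of 0.47 and 0.38.

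Of 11 tested ETS factors outside the Pea3 group 1 rose and 2 fell, or 27.3% beside 40.1% of all genes. With probe sets averaged 9 were bright enough to test and 1 of those passed. Ets2 fell by 0.38 (limma adjusted p = 0.00542), but with its probe sets averaged the log2 change was -0.10 and did not pass (adjusted p = 0.354). Elf1 fell by 0.29 (adjusted p = 0.00681), and with its probe sets averaged it lay below the brightness filter and was not tested. Gabpa rose by 0.22 (adjusted p = 0.0376). The call of Gabpa was lost without collagen replicate 1 or 3, without fibronectin replicate 2 or 3 and without the brightness filter, at adjusted p between 0.061 and 0.117. Phlda3, a relative of Phlda1, had a log2 change of 0.07 and did not pass, and Phlda2 lay below the filter.

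**Figure D3:**
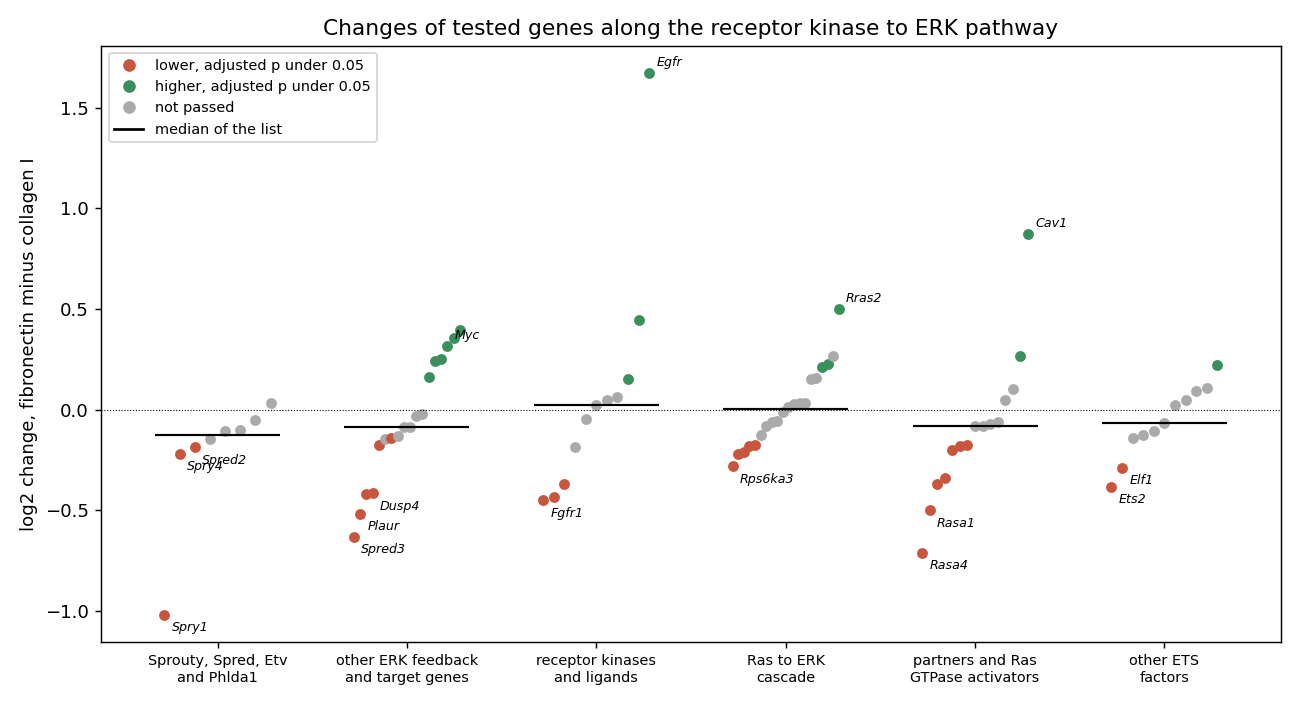
Log2 change (vertical axis, fibronectin minus collagen I) of each tested gene, sorted by size within the members and 5 pathway lists along the horizontal axis. Red and green points passed an adjusted p of 0.05 and lines are list medians; Spry1 at -1.02 is the lowest point and Egfr at 1.67 the highest, and each list holds points on both sides of 0.

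The genes whose values ran closest to those of Spry1 over the 6 samples were Smoc2, a matricellular protein, Htr2b, a serotonin receptor, and Vegfc, a growth factor of lymphatic vessels. The measure was the root mean square difference after centring each gene on its mean, which was 0.06, 0.07 and 0.07 log2 units. Smoc2 read 7.78, 7.77 and 7.75 on collagen and 6.45, 6.69 and 6.79 on fibronectin. All of them shared the order of the fibronectin samples with Spry1, replicate 1 lowest and replicate 3 highest. They were chosen for this likeness, so their own changes are descriptions.

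Some markers of other cell types also changed on fibronectin. Beside them, 40.1% of all tested genes were called, 20.2% lower and 19.9% higher. Of the 4 smooth muscle and pericyte markers 1 fell and 0 rose: Rgs5 went from 9.11, 9.12 and 9.00 on collagen to 7.47, 8.01 and 8.03 on fibronectin. Neither Cspg4 nor Notch3 passed, at log2 changes of -0.35 and 0.12 (limma adjusted p = 0.0791 and 0.334), and Myh11 lay below the filter. The summed linear signal of that list, most of it from Rgs5, was 549 to 598 on collagen and 216 to 305 on fibronectin. Of 6 macrophage markers 2 fell, Cd68 by 1.28 and Cd14 by 0.46 on the log2 scale. Csf1r, the receptor for macrophage colony stimulating factor, had a log2 change of -0.03 (adjusted p = 0.821), and Ptprc, Adgre1 and Tyrobp lay below the filter. The macrophage sums were 52.9 to 59.7 and 35.8 to 41.2. Among the 7 measured fibroblast markers Col3a1 rose by 0.21 and Thy1 fell by 0.32 on the log2 scale. The fibroblast sums, nearly all from Col3a1, were 623 to 686 on collagen and 735 to 788 on fibronectin. Of the myoblast markers 3 fell and 1, Cdh15, rose, with sums of 4840 to 5050 and 4280 to 4480. Their part in the change of Spry1 was not tested.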

How the data were processed

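Per the submitters' processing notes the authors used Affymetrix Expression Console and RMA, and the deposited values are log2 signals per probe set. Versions, settings and scan dates: not given in the sources used here. No batch could therefore be examined. RMA makes signal distributions alike across arrays, which removes a shift common to most genes, and it compresses changes of dim probe sets. Biotin labelling used 300 ng RNA, per the labels.

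Groups came from sample titles and values were used as deposited. Probe sets were named from the platform annotation, updated through RefSeq (GRCm38.p6), which held 18032 of the 18194 gene identifiers. Promoter windows came from RefSeq for the same build and were read for 6 of the 9 named genes. Etv4 and Phlda1 had no entry, and the window of Spry4 was left out here. The probe set with the highest mean stood for a gene, and genes with a mean under 2.33 (the median probe set) were not tested. This left 10941 genes. Two-sided limma 3.58.1 in R 4.3.3 (lmFit, eBayes, no covariates, 4 residual and 3.81 prior degrees of freedom) compared fibronectin with collagen, and p-values were adjusted after Benjamini and Hochberg over the genes tested, or over 22496 probe sets for the probe set fit. Intervals are 95% and unadjusted. Exact permutation tests compared paralogs. Precision is limited by the number of arrays: SEs of log2 changes had a median of 0.06. The procedure was tested on simulated data.

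Members, lists, markers and tests were chosen with earlier results of these data known. From each pathway list up to 3 genes (4 for feedback genes) past the threshold were named by smallest p, together with fixed genes (among them Dusp6, Fgfr1, Fgf2, Egfr, Nf1 and Cbl). For the member with the largest fall the 3 genes most like it were named, predicted genes left out. The GGAA motif was added after the values were seen. In the adipocyte and endothelial marker lists 0 genes were bright enough to test. Of the Schwann list 1 gene, Sox10, was tested and did not pass. Alternatives were filters, scalings, averaged probe sets, variance settings, array weights, a replicate block, stricter thresholds and leaving out each sample.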

Additional observations from a re-analysis of the deposited data

How the results depend on the processing

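Spry1 kept its direction and its call under all 15 alternatives run for it. The count of members called, 3 with the settings described, was 5 with the 75th percentile filter, 5 with array weights and 1 with samples centred. It was 1 at an adjusted p of 0.01, 1 with a change of at least 1.5-fold, and 2 to 4 with a sample left out. The count over all genes moved as well, from 4384 of 10941 to 3579 of 7021 with the 75th percentile filter. It was 4780 with array weights, 4619 with samples centred and 3431 to 4137 with a sample left out. Member probe sets called, 7, became 3 without the brightness filter, 3 with samples centred, 1 at 0.01, 1 at 1.5-fold and 3 to 7 with a sample left out. Of all tested probe sets 32.0% passed with the settings described and 34.1% with samples centred. That share is not given here for the other settings, but without the brightness filter 3317 of 18193 genes passed. Genes called over the pathway lists, 38, became 21 at 0.01 and 4 at 1.5-fold, and all genes called, 4384, became 2569 and 572. Centring moved the median change of all tested genes by 0.05 and the share of higher genes among those called from 49.6% to 64.4%. Same-numbered samples deviated together at r of 0.10, -0.01 and 0.08 over tested genes, and different-numbered samples at r between -0.14 and 0.10. These few values do not decide whether the numbers mark pairs. No label says that they do, so the numbers were not taken as pairs. With the replicate number as a block 3 members, 7 member probe sets, 36 pathway genes and 4178 genes passed. The direction of some uncalled changes turned. With samples centred Spred1 was 0.00093, and probe sets 1452911_at, 1460116_s_at and 1423001_at were 0.0081, 0.028 and 0.0014. Etv5 was 0.013 with probe sets averaged. The Etv5 probe set 1450082_s_at was 0.0082 after quantile normalisation and 0.049 with centring. The paralog differences kept their sign in each of the settings run for them. Centring could not alter them, since it subtracts the same value from both genes of a sample. Spred1, Etv4, 1452911_at, 1460116_s_at, 1423001_at, 1443381_at and 1450082_s_at ranged, over the fits that left out a sample, from -0.11 to 0.033, -0.011 to 0.069, -0.097 to 0.011, -0.17 to 0.090, -0.11 to 0.0049, -0.061 to 0.15 and -0.047 to 0.029 respectively. The causes of these differences between settings were not tested. The calls of Spry4, Spred2 and Dusp6 were each lost in at least 1 setting.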
